A study of Mus musculus with 6 samples.

Results

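The channel that closes when light falls on a photoreceptor, the exchanger that clears calcium beside it and the opsins of cones were followed in retinas of prCAD mutant and wild type mice. The 7 genes were Cnga1, Cngb1 and Slc24a1 of rods, Cngb3 and Slc24a2 as cone counterparts, and the cone opsin genes Opn1sw and Opn1mw. They were chosen by name, with earlier results of these data known. Every probe set that the platform annotation gives to 1 of them alone was taken, which came to 9 of 45037 non-control probe sets. All 9 had a mean above 4.76, the median over all probe sets on the log2 scale, so none was lost to a filter on low values. The cone channel subunit Cnga3 is not analysed here.

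Retinas came from mice about 4 weeks old, and each of the 6 single-colour Affymetrix arrays held RNA pooled from 3 mice. The 3 mutant arrays were of prCAD knockout mice, which lack photoreceptor cadherin, a membrane protein at the base of the outer segment encoded by Cdhr1. The other 3 arrays were of wild type 129 mice. No source used here gives the strain of the mutants or how the allele was made, so alleles that differ between strains and the loss of Cdhr1 cannot be told apart in any comparison below. Values are log2 expression values, and 1 unit is a doubling. The 6 arrays had medians between 4.74 and 4.79, and their number limits the precision. The Cdhr1 probe set read 3.94, 4.20 and 4.34 in mutant arrays, against 11.32, 11.36 and 10.98 in wild type arrays, lower in every mutant array (difference -7.06, SE 0.15, limma adjusted p = 2.18e-05). No source used here says whether this probe set lies inside or outside the altered part of the gene. The replicate 3 arrays of both groups stood apart, with array weights of 0.37 (mutant) and 0.39 (wild type) against 0.81 to 3.30 for the other 4, so the differences of the 7 genes and the list medians are also given without them.

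In darkness cyclic GMP holds open a cation channel in the outer segment membrane, through which sodium and calcium enter. Light activates an opsin, phosphodiesterase breaks down cyclic GMP and the channel closes, while a potassium-dependent sodium/calcium exchanger goes on extruding calcium, which is the signal for recovery. Rods build the channel from CNGA1 and CNGB1 and use the exchanger NCKX1 (Slc24a1), while cones use CNGA3 and CNGB3 with the exchangers NCKX2 (Slc24a2) and, in mouse, NCKX4 (Slc24a4). Mouse cones express a short-wavelength opsin (Opn1sw), a middle-wavelength opsin (Opn1mw) or both, with opposed gradients across the retina.

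Photoreceptor genes are known to be controlled by the homeodomain factors CRX and OTX2 and, in rods, by NRL. The 250 bases before the start of the 3 rod genes and of the 2 opsin genes are shown, because these genes mark the cells whose RNA was compared, with any match in capitals to TAATCC (CRX and OTX2) or TGCTGA (the core of NRL sites), on either strand. Sequences are from RefSeq (GRCm38.p6), 5′ to 3′ on the strand of the gene.
Cnga1, chr5:72642753-72643002 (minus strand): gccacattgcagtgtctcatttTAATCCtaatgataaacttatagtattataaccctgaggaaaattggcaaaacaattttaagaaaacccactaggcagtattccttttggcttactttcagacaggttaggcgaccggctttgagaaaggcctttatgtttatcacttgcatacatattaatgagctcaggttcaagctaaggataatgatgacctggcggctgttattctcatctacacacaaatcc
Cngb1, chr8:95306586-95306835 (minus strand): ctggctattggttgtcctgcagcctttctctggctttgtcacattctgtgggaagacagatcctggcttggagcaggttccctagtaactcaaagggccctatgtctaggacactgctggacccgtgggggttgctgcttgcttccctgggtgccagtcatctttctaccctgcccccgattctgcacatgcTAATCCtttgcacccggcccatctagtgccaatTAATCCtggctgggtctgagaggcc
Slc24a1, chr9:64951621-64951870 (minus strand): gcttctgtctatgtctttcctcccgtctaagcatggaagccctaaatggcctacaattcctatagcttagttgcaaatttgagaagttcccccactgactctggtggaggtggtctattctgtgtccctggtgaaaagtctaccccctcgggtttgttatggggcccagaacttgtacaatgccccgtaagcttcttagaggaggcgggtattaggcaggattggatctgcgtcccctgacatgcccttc
Opn1sw, chr6:29380514-29380763 (minus strand): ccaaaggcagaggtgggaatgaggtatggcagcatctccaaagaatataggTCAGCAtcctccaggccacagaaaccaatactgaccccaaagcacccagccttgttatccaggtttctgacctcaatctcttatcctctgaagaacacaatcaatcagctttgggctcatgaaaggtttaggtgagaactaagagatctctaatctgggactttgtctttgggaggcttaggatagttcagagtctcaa
Opn1mw, chrX:74127216-74127465 (plus strand): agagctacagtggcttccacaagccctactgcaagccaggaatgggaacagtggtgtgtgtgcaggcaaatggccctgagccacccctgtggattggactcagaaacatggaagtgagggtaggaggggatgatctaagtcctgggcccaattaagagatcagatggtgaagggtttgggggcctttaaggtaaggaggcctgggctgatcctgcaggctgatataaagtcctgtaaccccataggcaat

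Entries were found for 6 of the 7 genes, all but Cngb3. The Cngb1 stretch held TAATCC 2 times, ending 20 and 53 bases before the start, and the Cnga1 stretch held it 1 time, ending 223 bases before it. In 32851 promoters of this length TAATCC or its reverse complement GGATTA occurred in 6.25%, and 2 or more times in 0.295%. The Opn1sw stretch held TCAGCA, the reverse complement of TGCTGA, 1 time, a motif found in 16.1% of promoters. Neither motif was in the stretches shown for Slc24a1 and Opn1mw or in the 2 promoters listed for Slc24a2, and the matches of the 2 motifs did not overlap.

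The rod genes read slightly lower in mutant retina, and none of them passed the test over all probe sets. Cnga1, the cyclic GMP binding and pore-forming alpha subunit of the rod channel (probe set 1451763_at), read 10.71, 10.40 and 10.30 in mutant arrays, against 10.76, 10.41 and 10.61 in wild type arrays. The groups overlapped, with mutant replicate 1 second highest of all. The difference was -0.12 (SE 0.14, 95% interval -0.46 to 0.22, limma adjusted p = 1.00), or 0.918 times the wild type level. Cngb1, the beta subunit, also encodes the glutamic acid-rich proteins that lie at the disc rims (probe set 1451549_at). It read 9.51, 9.55 and 9.38 in mutant arrays, against 9.62, 9.60 and 9.81 in wild type arrays, so every mutant array lay below every wild type array. It differed by -0.20 (SE 0.10, 95% interval -0.44 to 0.04), or 0.872 times. No source used here says which Cngb1 transcripts the probe set reads.

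Slc24a1, which encodes the rod exchanger that binds to this channel (probe set 1451647_at), had the widest rod difference. It read 11.29, 11.03 and 11.00 in mutant arrays, against 11.41, 11.29 and 11.44 in wild type arrays. Mutant replicate 1 and wild type replicate 2 read alike at 2 decimals, and the other mutant arrays lay below all wild type arrays. The difference of -0.28 (SE 0.11, 95% interval -0.54 to -0.01) had an unadjusted p = 0.0429 by limma and did not pass after adjustment (adjusted p = 1.00). In bulk retina fewer rods and less of a transcript per rod cannot be told apart.

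Much of the rod difference came from the third pair of arrays. Within same-numbered pairs Cnga1 differed by -0.05, -0.02 and -0.31, Cngb1 by -0.11, -0.06 and -0.43 and Slc24a1 by -0.12, -0.26 and -0.45. All 9 of these differences were below 0. Without both replicate 3 arrays the differences were -0.03 for Cnga1, -0.08 for Cngb1 and -0.19 for Slc24a1. Single arrays mattered most for Cnga1, which ran from -0.24 without mutant replicate 1 to -0.04 without mutant replicate 3 or wild type replicate 1. Cngb1 was -0.13 without wild type replicate 3.

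Neither cone counterpart passed the test. Cngb3, the beta subunit of the cone channel (probe set 1450492_at), was the one gene higher in mutant retina in all 3 pairs. It read 6.32, 6.26 and 6.16 in mutant arrays, against 6.19, 6.16 and 5.88 in wild type arrays, and the groups overlapped at mutant replicate 3. The difference was 0.17 (SE 0.11, 95% interval -0.10 to 0.44, limma adjusted p = 1.00). It was 0.12 without both replicate 3 arrays and 0.07 without wild type replicate 3 alone.

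Slc24a2 encodes the exchanger NCKX2, which brain neurons use as well, and it was read by 2 probe sets. The brighter one (1429225_at) read 5.52, 5.71 and 5.44 in mutant arrays, against 5.68, 5.89 and 5.70 in wild type arrays, a difference of -0.20 (SE 0.11, 95% interval -0.46 to 0.06). The dimmer one (1453885_at) read 4.77, 4.88 and 4.94 in mutant arrays, against 4.84, 5.04 and 5.30 in wild type arrays, a difference of -0.20 (SE 0.13, 95% interval -0.51 to 0.12). Both probe sets were lower in all 3 pairs with overlapping groups, and neither passed. Without both replicate 3 arrays they differed by -0.17 and, at the dimmer one, by -0.12. The dimmer one was at -0.08 without wild type replicate 3 alone and at -0.30 without wild type replicate 1, while the brighter one was at -0.13 without wild type replicate 2. The dimmer one lies close to the overall median of 4.76, where background limits a difference.

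Neither cone opsin gene passed the test. Opn1mw, the middle-wavelength opsin (probe set 1419723_at), read 8.73, 8.94 and 8.80 in mutant arrays, against 9.11, 9.40 and 8.88 in wild type arrays. Only mutant replicate 2 reached into the wild type range. The difference was -0.31 (SE 0.15, 95% interval -0.65 to 0.04, limma adjusted p = 1.00), or 0.808 times, and within the pairs it was -0.39, -0.46 and -0.08. Without both replicate 3 arrays it was -0.42 (SE 0.14, adjusted p = 0.527), and without wild type replicate 2, the highest array, it was -0.17.

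Opn1sw, the short-wavelength opsin, was read by 2 probe sets. The brighter one (1449132_at) read 10.40, 10.51 and 10.50 in mutant arrays, against 10.48, 10.70 and 10.11 in wild type arrays, a difference of 0.03 (SE 0.15, 95% interval -0.33 to 0.40). Wild type replicate 3 was the lowest of the 6 and set that direction, since the difference was -0.13 without it, -0.14 without both replicate 3 arrays and -0.07 with array weights. The dimmer one (1418552_at) read 5.74, 5.84 and 6.04 in mutant arrays, against 6.39, 6.15 and 6.07 in wild type arrays, and here every mutant array lay below every wild type array. Its difference of -0.33 (SE 0.13, 95% interval -0.63 to -0.03) had an unadjusted p = 0.0363 by limma and an adjusted p = 1.00. Without both replicate 3 arrays it was -0.48 (SE 0.12, adjusted p = 0.366). No source used here says which part of the transcript each one reads.

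**Figure D1:**
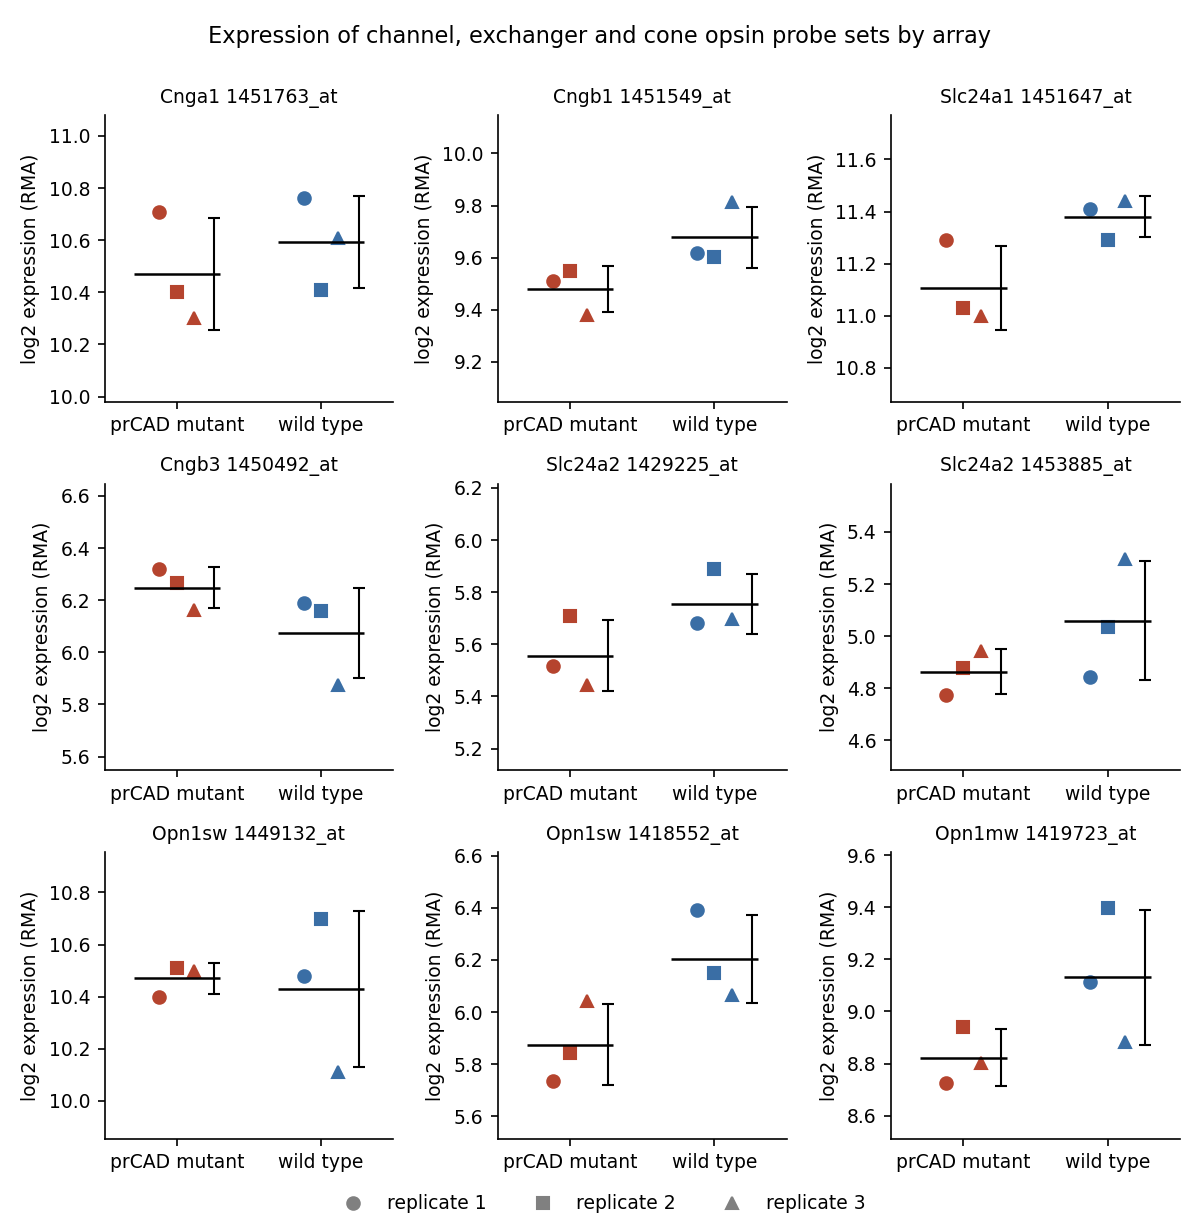
Log2 expression (y axis, each panel spanning 1.1 units) of the 9 probe sets in 3 mutant and 3 wild type arrays. Symbols mark the replicate number, horizontal lines the group mean and bars 1 SD (n = 3). The groups are apart for Cngb1 and for the dimmer Opn1sw probe set and overlap for the other 7.

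Over the 9 probe sets 0 passed the test by limma at an adjusted p under 0.05, where 0.0111% of all probe sets did. With the replicate block again 0 of 9 passed, where 0.0333% of all probe sets did, and with array weights 0 of 9, where 0.0555% did. At an unadjusted p under 0.05 there were 2 of 9, those of Slc24a1 and the dimmer Opn1sw probe set, both lower in mutant retina, where 1.34% of all probe sets were lower at that level. With the block 4 of 9 were under 0.05 unadjusted, all lower, against 3.83% of all probe sets. They were those of Slc24a1 and Opn1mw, the brighter Slc24a2 and the dimmer Opn1sw probe set. The mutant arrays lay wholly below the wild type arrays for 2 of 9, as for 3.07% of all probe sets, and wholly above for 0, as for 4.73%.

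The direction was mostly shared. Mutant means were lower for 7 of 9 probe sets, where 46.4% of all probe sets were lower, and the same 7 were lower within all 3 same-numbered pairs, where 13.1% were. The exceptions were Cngb3 and the brighter Opn1sw probe set. With each gene at its brightest probe set 5 of the 7 genes were lower, where 41.6% of all named genes were. The 7 had a median difference of -0.20, against 0.02 for all 18193 named genes (quartiles -0.05 and 0.10). The sizes were small: no probe set differed by more than 0.33, and the 95% intervals together ran from -0.65 to 0.44. Of all probe sets brighter than the overall median, 93.5% also differed by at most 0.33.

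**Figure D2:**
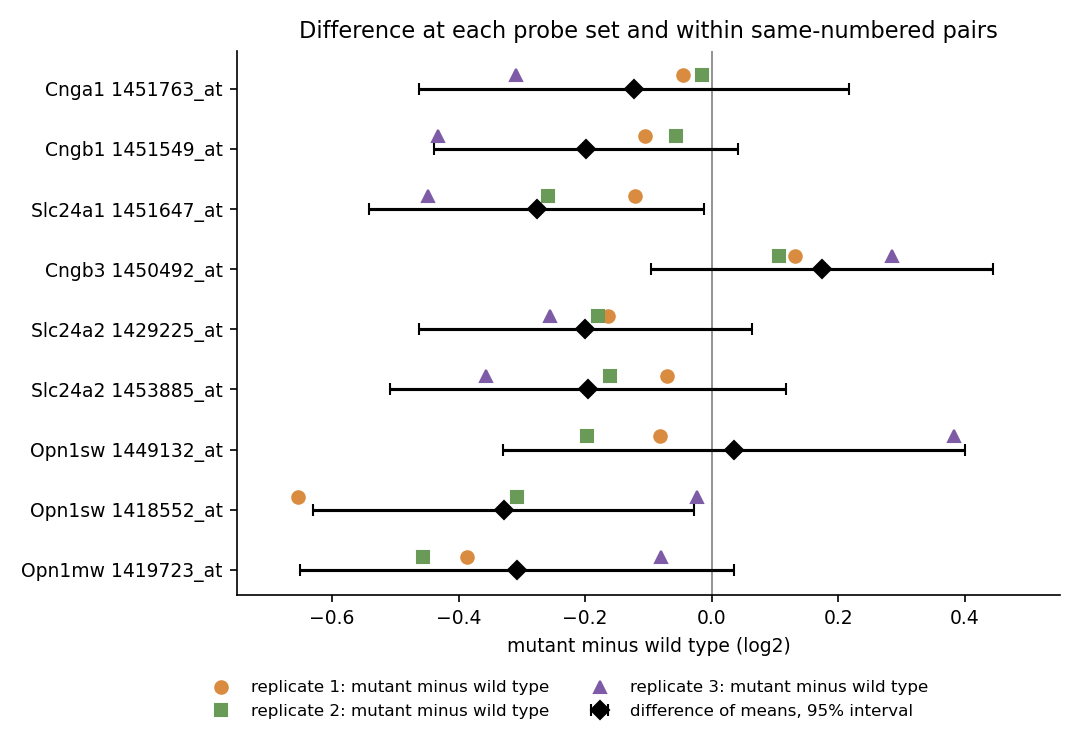
Mutant minus wild type difference (x axis, log2) at each probe set. Diamonds and bars are the difference of means with its 95% interval from limma, and coloured symbols are the differences within same-numbered pairs. Pair 3 gives the lowest value for all 3 rod genes and the highest for the opsin probe sets.

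Counterparts were then compared within arrays, so that each array served as its own scale. The cone beta subunit Cngb3 differed by 0.37 more than the rod beta subunit Cngb1, with an exact two-sided permutation p = 0.1 over 3 against 3 arrays. This gap was higher in all 3 pairs, by 0.24, 0.16 and 0.72, and thus widest in the third pair. Opn1sw at its brighter probe set differed by 0.34 more than Opn1mw, by 0.30, 0.26 and 0.46 within the pairs (exact permutation p = 0.1). For both, the mutant and wild type arrays did not overlap in this within-array gap, and 0.1 is the smallest p that 3 against 3 arrays allow. How often other gene pairs lie apart in this way was not computed, so the separation has no background to be read against. With same-numbered arrays kept as pairs, the exact sign-flip permutation p was 0.25 for both, the smallest that 3 pairs allow. Slc24a2 differed by 0.08 more than Slc24a1 (exact permutation p = 0.7, paired 0.5). The 2 Opn1sw probe sets differed from each other by -0.36, the dimmer minus the brighter one (exact permutation p = 0.2, paired 0.25), and the groups overlapped in this gap. At the dimmer one Opn1sw differed by -0.33 and Opn1mw by -0.31, so the opsin gap above rests on the brighter one. Adjusted over these 4 comparisons, the lowest unpaired p was 0.2. The pairs were chosen after the values were seen.

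The rest of the cascade was read from lists of named genes, each gene at its brightest probe set, and by limma 0 genes of any list passed over all probe sets, where 0.0165% of named genes did. Counts at an unadjusted p under 0.05 in the fit without the block are given beside each list, against 3.42% of all named genes. Counts of lower genes stand against 41.6% of all named genes. Of 12 measured rod cascade genes 10 were lower and 2 higher in mutant retina, at a median of -0.15. Pde6b and Pde6g, subunits of the rod phosphodiesterase, differed by -0.24 (SE 0.12) and -0.17 (SE 0.09). The 1 gene under 0.05 was Sag, rod arrestin, which differed by 0.26 (SE 0.09). Its mutant arrays lay wholly above the wild type arrays, as for 4.73% of all probe sets. The cascade median was -0.03 without both replicate 3 arrays and -0.07 without mutant replicate 3 alone. The rod channel and exchanger genes had a median of -0.20, and of -0.08 without both replicate 3 arrays.

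Of 8 measured cone cascade genes 3 were higher and 5 lower, at a median of -0.17. That median was -0.01 without both replicate 3 arrays and turned to 0.05 without mutant replicate 3 alone. The phosphodiesterase subunit gene Pde6c differed by 0.76 (SE 0.12, limma adjusted p = 0.479) and the cone transducin beta gene Gnb3 by 0.99 (SE 0.21, adjusted p = 0.920). These were the 2 genes under 0.05 unadjusted. Pde6h, the inhibitory cone phosphodiesterase subunit, differed by -0.28 (SE 0.22) and Kcne2, a potassium channel subunit, by -0.38 (SE 0.19). The differences of Cngb3 (0.17) and Opn1mw (-0.31) lay between those of Gnb3 and Kcne2.

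In the list of cyclic GMP synthesis and calcium feedback 6 genes were measured, 3 higher and 3 lower, at a median of -0.02, or 0.05 without both replicate 3 arrays. Aipl1, a chaperone of phosphodiesterase, differed by 0.36 (SE 0.10), and Rd3, a regulator of guanylate cyclase, by 0.27 (SE 0.10), the 2 genes under 0.05 unadjusted. The guanylate cyclase gene Gucy2e differed by -0.54 (SE 0.51). Of 9 measured ion transport and binding partners 7 were lower and 0 were under 0.05, at a median of -0.15, or -0.14 without both replicate 3 arrays. Among them were the disc rim genes Prph2 (-0.73, SE 0.37) and Rom1 (-0.23, SE 0.13), whose products bind the glutamic acid-rich proteins of Cngb1, and Atp2b1, a plasma membrane calcium pump (-0.15, SE 0.10).

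Other members of the channel and exchanger families split evenly, 4 higher and 4 lower of 8 measured, at a median of -0.01, or 0.06 without both replicate 3 arrays. The sodium/calcium exchanger gene Slc8a3 differed by -0.44 (SE 0.16) and was the 1 gene under 0.05. Its mutant arrays lay wholly below the wild type arrays, as for 3.07% of all probe sets. Slc24a4, the other exchanger gene of mouse cones, differed by 0.15 (SE 0.35). All 4 other opsin genes measured were higher, at a median of 0.10 (0.11 without both replicate 3 arrays), and 1 was under 0.05. That was Rgr, an opsin of pigment epithelium and Müller glia (1.40, SE 0.39), while Opn4, melanopsin of ganglion cells, differed by 0.08 (SE 0.09). Of 16 regulators of photoreceptor fate and opsin choice 12 were lower, at a median of -0.06 (-0.09 without both replicate 3 arrays), and 2 were under 0.05. These were the nuclear receptor gene Esrrb (-0.42, SE 0.13) and Mef2c (-0.69, SE 0.23).

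**Figure D3:**
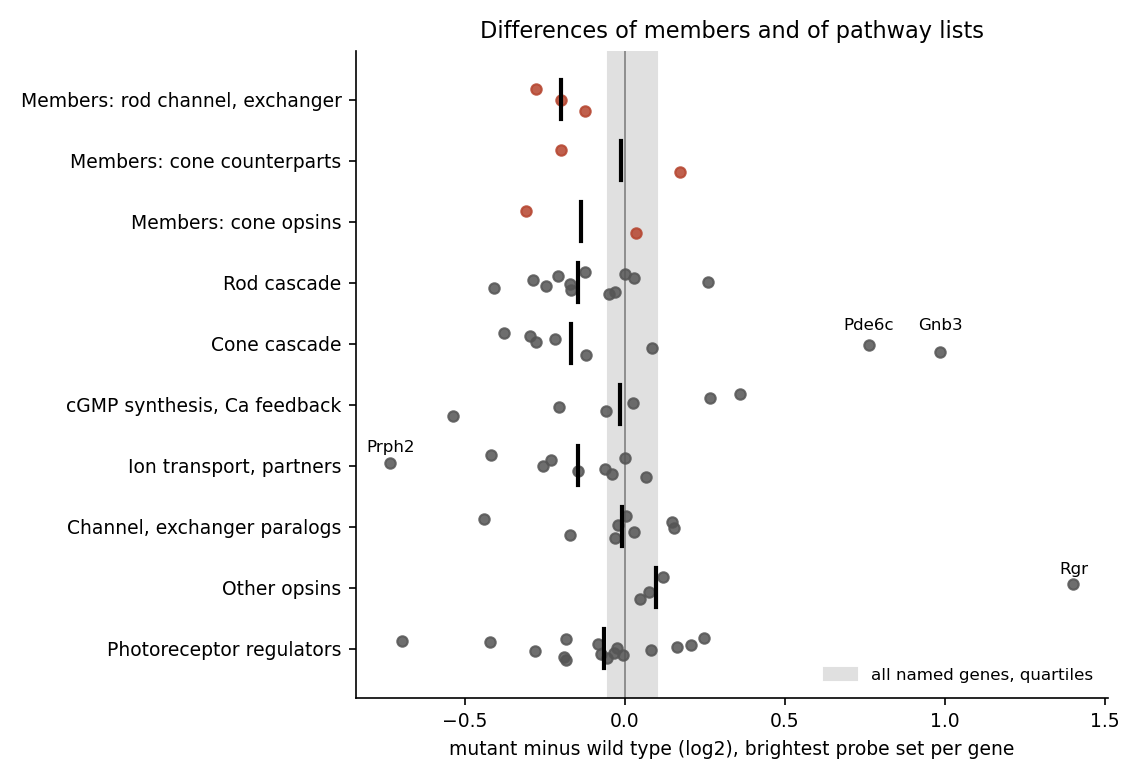
Mutant minus wild type difference (x axis, log2) of each gene at its brightest probe set, for the 7 genes (red) and for the pathway lists (grey). Black bars are list medians and the shaded band the quartiles of all named genes, from -0.05 to 0.10. Several listed genes lie farther from 0 than any of the 7, and the farthest, Pde6c, Gnb3, Rgr and Prph2, are labelled.

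Among markers of other cells 0 passed the test over all probe sets. Of all named genes 3.42% were under 0.05 unadjusted in either direction, and 41.6% were lower in mutant retina. All 10 pigment epithelium markers were higher in mutant arrays, 8 of them at an unadjusted p under 0.05, at a median of 0.90. The differences ran from 0.01, near 0, to 2.27, and Rgr is counted both here and among the other opsins. The summed level of the 10 on the linear scale ran from 1914 to 2572 in mutant arrays, against 574 to 1260 in wild type arrays. All 10 had means above 4.76. Microglia markers were higher for 9 of 10 at a median of 0.18, and their sum ran from 541 to 598 in mutant arrays, against 414 to 454 in wild type arrays, with 7 of 10 above 4.76. Müller glia markers were higher for 6 of 10 at a median of 0.15, with sums of 9370 to 11510 in mutant arrays, against 7345 to 9569 in wild type arrays, and all 10 above 4.76. Lens markers were higher for 9 of 10 at a median of 0.62, with sums of 19062 to 30251 in mutant arrays, against 10404 to 26551 in wild type arrays, and all 10 above 4.76.

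Among the neurons, rod markers were lower for 7 of 8 measured at a median of -0.18, where 41.6% of all named genes were lower. Their sum ran from 32389 to 34201 in mutant arrays, against 31837 to 36312 in wild type arrays, with all 8 above 4.76. Cone markers were lower for 6 of 9 at a median of -0.12, with sums of 3069 to 4833 in mutant arrays, against 3159 to 3907 in wild type arrays, and 8 of 9 above 4.76. All 9 measured ganglion cell markers were lower, at a median of -0.32, with sums of 1784 to 2210 in mutant arrays, against 2036 to 2913 in wild type arrays, and 7 of 9 above 4.76. Bipolar markers were higher for 3 and lower for 5 of 8, at a median of -0.07. They summed to 2188 to 2968 in mutant arrays, against 2602 to 3173 in wild type arrays, with 7 of 8 above 4.76. Amacrine and horizontal markers (median -0.03 over 10) summed to 2353 to 2696 in mutant arrays, against 2215 to 2814 in wild type arrays, with 7 of 10 above 4.76. At an unadjusted p under 0.05, where 3.42% of all named genes lay, there were 4 microglia markers and 2 Müller glia markers (Vim and Clu), all higher. The 3 ganglion cell markers at that level were all lower. The 2 cone markers and the 1 bipolar marker under 0.05 were higher (Pde6c, Gnb3 and Trpm1), and of the 2 rod markers Sag was higher and Reep6 lower. There were 0 lens markers and 0 amacrine and horizontal markers at that level. The lists share genes: Pde6c, Gnb3 and Sag are also in the cascade lists, and Pcp2 is listed as both a cone and a bipolar marker. Markers of all the retinal cell types looked at were thus above 4.76 for most of each list, as were those of pigment epithelium and lens, which lie outside the neural retina. The part of these marker differences in the differences of the 7 genes was not tested.

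The third pair of arrays differed from the others here too. Rod markers had pair medians of -0.12, -0.04 and -0.29, and the rod channel and exchanger genes had -0.11, -0.06 and -0.43. Lens markers had pair medians of 0.01, 0.20 and 1.52. The mean of the 2 opsin genes was -0.23, -0.33 and 0.15 within the pairs, and cone markers had medians of -0.09, -0.08 and 0.20. Without both replicate 3 arrays rod markers had a median of -0.12, cone markers of -0.04, bipolar markers of 0.000137, amacrine and horizontal markers of -0.04 and ganglion cell markers of -0.41. Müller glia markers had 0.09, microglia markers 0.23, pigment epithelium markers 0.86 and lens markers 0.13. Cone markers turned to 0.01 without mutant replicate 3 alone.

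**Figure D4:**
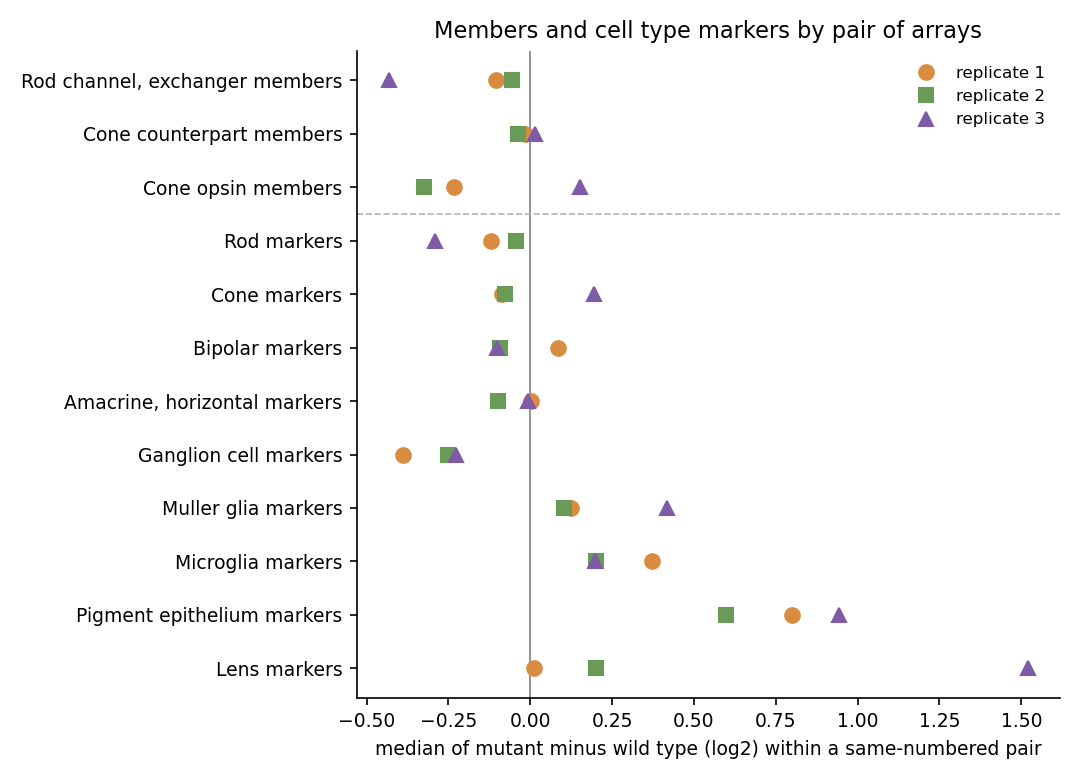
Median mutant minus wild type difference (x axis, log2) within each same-numbered pair of arrays, for the 7 genes in 3 groups (above the dashed line) and for cell type markers. Pair 3 lies lowest for rod genes and rod markers and highest for opsins, cone markers and lens markers.

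The genes whose profile over the 6 arrays lay nearest to each of the 7 were found by the root mean square difference of mean-centred log2 values, among 11785 other named genes above the overall median. Nearest to Cnga1 were Mxd3 (0.031) and Crebl2 (0.031), to Cngb1 Ankrd17 (0.031) and Zfp608 (0.034), and to Slc24a1 Uckl1 (0.042) and Guf1 (0.047). Nearest to Cngb3 were Large2 (0.028) and Pnpla2 (0.030), and to Slc24a2 Bcas2 (0.030) and Cyb5a (0.034). Opn1sw was nearest to Acbd6 (0.018) and Pex3 (0.034), and Opn1mw to Plgrkt (0.049) and Kcnip1 (0.067). The median distance over all these genes lay between 0.163 for Cngb3 and 0.258 for Opn1mw. Such nearness describes 6 arrays and was not tested.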

How the data were processed

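Retinal RNA of 6 arrays was analysed, 3 of prCAD mutant and 3 of wild type mice, grouped by the sample titles. The authors deposited log2 values made with RMA (version not stated), per the submitters' processing notes, for 45101 probe sets, of which 64 manufacturer controls were left out. RMA removes differences in total signal between arrays and gives no measure of depth, so the number of arrays sets the precision. The extracts were made with Trizol and RNeasy, per the labels' protocols. The platform annotation gives 34945 probe sets 1 gene symbol and 932 several, and 9160 are not named here. Each listed gene was taken at its brightest probe set.

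Groups were compared with limma 3.58.1 (lmFit, eBayes) in R 4.3.3, with group as the one term. P-values were adjusted by Benjamini-Hochberg over the 45037 remaining probe sets, and the threshold was 0.05. The fit was checked on simulated data. The 7 genes and the lists were chosen with earlier results of these data known. The text names the 7 genes, Cdhr1, up to 4 genes per list by smallest p and the 2 nearest profiles per gene. The SE and intervals are those of this fit. The labels do not say what a replicate number marks, but across probe sets the deviations from the group mean correlated at 0.477, 0.469 and 0.563 between arrays sharing a number. All exceed 0.1 and also the correlations between arrays of unlike number, which ran from -0.452 to 0.175. Of the latter, 0.175 (mutant 1, wild type 2) and 0.125 (mutant 2, wild type 1) exceed 0.1 too. Deviations from a group mean cancel out within the group, so a high correlation between same-numbered arrays pulls the others down. The contrast with arrays of unlike number is thus partly built in. Because of the correlations within numbers, same-numbered arrays were also compared as pairs and in a fit with a replicate block. The main fit, its SE and its intervals leave the pairing out. Alternatives were the replicate block, a dim filter, further quantile normalization, median centring, trend and robust eBayes, array weights, leaving out cross-hybridising probe sets or single arrays, a threshold of 0.10, gene means and, added after seeing the data, leaving out both replicate 3 arrays. Summed levels are sums of 2 to the power of the log2 value. Figures were drawn with matplotlib 3.10.9.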

Additional observations from a re-analysis of the deposited data

How the results depend on the processing

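No probe set of the 7 genes passed by limma under any alternative, nor at an adjusted p under 0.10, and the lowest adjusted p was 0.312, for the dimmer Opn1sw probe set with array weights. Of the 15 alternatives, 5 leave the differences as they are and bear on the adjusted p alone. Under the 10 others, 87 of 90 values had the direction first given. The 3 exceptions were the brighter Opn1sw probe set at -0.0706 with array weights, -0.125 without wild type replicate 3 and -0.139 without both replicate 3 arrays. Without single arrays that probe set ran from -0.125 to 0.17, reached without wild type replicate 2. The median difference of the 7 genes was -0.198, -0.119 with array weights and between -0.232 and -0.131 without single arrays, with -0.131 without wild type replicate 3. Over the whole array 5 probe sets passed, 15 with the replicate block, 25 with array weights, 3 without probe sets that can cross-hybridise, 2 to 9 without single arrays and 16 without both replicate 3 arrays. The block changed no call among the 7 genes or the listed genes. Values near 4.76 are limited by background.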
